A study of Bos taurus with 9 samples.

Results

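The interferon regulatory factor (IRF) genes described here are IRF1, IRF2, IRF3, IRF4, IRF5, IRF7 and IRF8, taken by gene symbol from the expression table. All 7 were among the 17162 genes of the table, and 6 of them, all but IRF4, were among the 12578 genes tested. The samples were BEND, primary cells grown from the endometrium of Holstein cows, which is the lining of the uterus, and labelled as wild-type epithelial cells. RNA was sequenced from 3 groups of 3 replicates. CON cells received no hormone and no IFNT. GA cells received 1 nM E2 (estradiol) and 100 nM P4 (progesterone), listed as a 12 h treatment. GB cells received the same hormones and then 100 ng/mL IFNT for 12 h. IFNT is interferon tau, by which a ruminant embryo signals pregnancy to the mother. When CON and GA cells were collected is not given separately in the sources used here, so IFNT and culture time cannot be told apart in the comparisons with GB. The sources also do not say whether the 3 replicates of a group came from separate cows, and the p-values then measure the spread between these dishes.

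IRF proteins are transcription factors that share an amino-terminal DNA-binding domain with conserved tryptophans and bind GAAA-rich elements in the promoters of interferons and of interferon-stimulated genes (ISGs). IRF1 activates such promoters, and IRF2 binds the same elements and mostly restrains them. In sheep, IRF2 in the luminal epithelium of the pregnant uterus is known for keeping classical ISGs silent there. IRF3 and IRF7 lie latent in the cytoplasm until the kinases TBK1 and IKBKE phosphorylate them, IRF5 is activated downstream of the adaptor MYD88, and IRF4 and IRF8 act mainly in lymphoid and myeloid cells. IRF9 and STAT2 belong to ISGF3, the complex that carries the type I interferon signal to the nucleus.

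Levels are given in FPKM, in which fragment counts are divided by transcript length and by the size of the library, so different genes can be set side by side within a group. Differences are log2FC on log2(FPKM + 0.5), a scale on which weakly expressed genes appear to change less than they do. They come from limma in 1 fit over the 9 libraries. A call needed both |log2FC| over 1 and p under 0.05 after Benjamini-Hochberg adjustment over all tested genes. The FPKM of a library summed to between 1395600 and 1442700, and 14452 to 14893 genes were above 0. The table holds no read counts, so the depth behind a value is unknown. Epithelial markers were near 0, since none of the 8 on the list, KRT8, KRT18, KRT19 and CDH1 among them, exceeded 0.70 FPKM in any library and their summed level was 0.92 to 2.01 FPKM. Summed stromal fibroblast markers, with VIM and COL1A1 the most familiar, reached 16278 to 16862 FPKM in the CON libraries and 16495 to 16819 in those of GA, against 14753 to 14852 in those of GB. The defining transcripts of the labelled cell type were thus at or near 0. The authors report that the cells were positive for cytokeratin by immunofluorescence, which shows protein, whereas the values here are RNA. The summed stromal markers, of which VIM made up the most, were lower in every GB library than in the others, but the 8 genes did not move together and 0 were called. An unadjusted p under 0.05 was found for 8 of them against CON and 6 against GA (limma), against 43.8% and 40.0% of all tested genes. PDGFRA was higher in GB, with a log2FC of 0.38 against CON and 0.33 against GA, while VIM was lower, at −0.22 and −0.17. DCN and LUM were higher against CON and lower against GA. Summed endothelial markers were at 1.68 to 2.45 FPKM in CON, 1.57 to 1.79 in GA and, with IFNT, 2.27 to 3.44, and CDH5, the only 1 of these 5 genes tested, had a log2FC of 0.34 against CON (adjusted p = 0.253, limma) and 0.68 against GA (adjusted p = 0.0395, same test), and was not called. The part of these markers in the IRF results was not tested.

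With IFNT, IRF7, IRF1, IRF2 and IRF3 rose in both comparisons, IRF7 most and IRF3 and IRF2 least. IRF8 was also called higher but at a very low level, IRF5 did not pass the test, and IRF4 was listed at 0 in 8 of the 9 libraries. Over all tested genes, 2.94% were called higher against CON and 2.66% against GA, and the counts of members called were 5 of 6 tested in each. IRF8 stands in the tests only through its GB values, since its means in CON and GA were below the filter of 0.5 FPKM, and it had to differ in order to be tested. Of the 5 members that reached 0.5 FPKM in every group, 4 were called higher. Of the same 5, all had every GB library above every CON library and 4 had every GB library above every GA library, as were those of 22.2% and 15.7% of all tested genes. No member was called lower, where 1.07% of tested genes were called lower against CON and 0.978% against GA. Both comparisons use the same GB libraries. In bulk RNA, a change in the share of responding cells and a change in RNA per cell cannot be told apart.

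**Figure D1:**
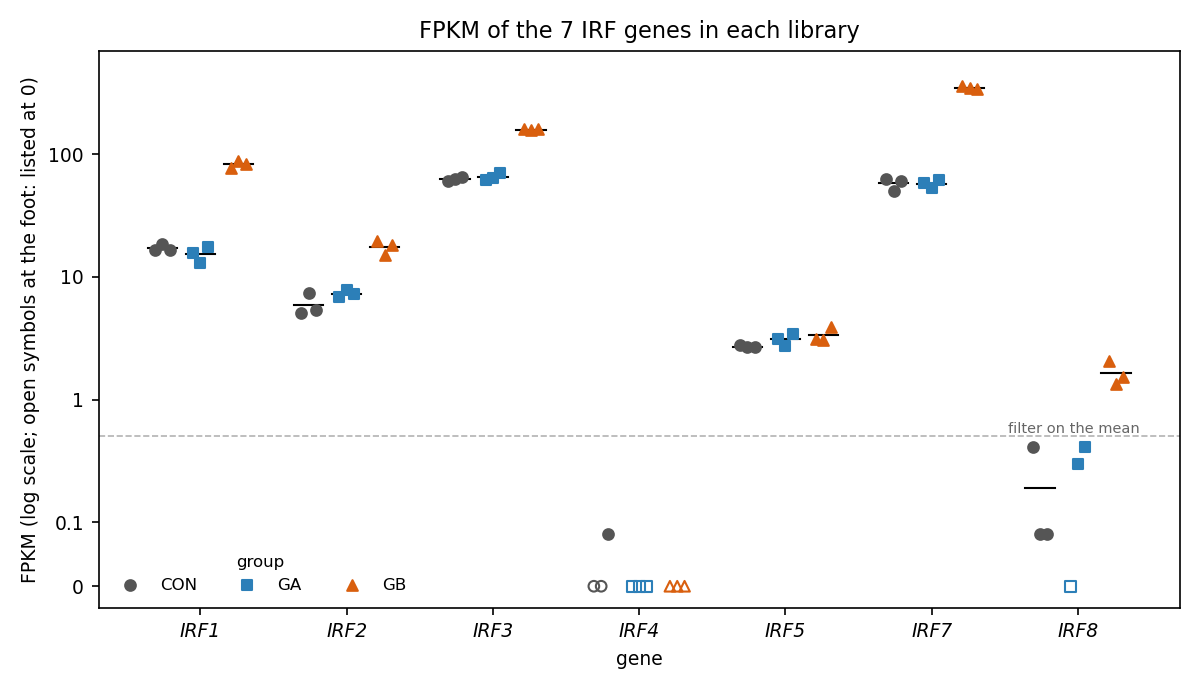
FPKM of the 7 IRF genes in each of the 9 libraries, on a log axis with zeros set at its foot, with 1 symbol per library, lines at the group means where no library is at 0, and open symbols for values listed at 0. The GB triangles of IRF1, IRF2, IRF3, IRF7 and IRF8 stand above every CON and GA symbol, while those of IRF5 overlap GA and those of IRF4 are at 0.

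IRF7, which amplifies interferon production once it is itself induced, was at 62.7, 49.9 and 61.1 FPKM in CON, 58.4, 53.5 and 61.4 in GA, and 359, 348 and 343 in GB. The 3 GB libraries lay far above the other 6, and the GA libraries lay within the CON range. The mean rose from 57.9 ± 6.96 FPKM (SD, n = 3) in CON and 57.8 ± 4.02 in GA to 350.0 ± 7.76 in GB. The ratio of means was 6.04 to CON and 6.06 to GA, and the log2FC was 2.59 in each comparison (SE 0.086, adjusted p = 2.1e-08 in both, limma). By log2FC it ranked 119th of the tested genes from the top against CON and 114th against GA.

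IRF1 was at 16.6, 18.5 and 16.5 FPKM in CON, 15.8, 13.1 and 17.4 in GA, and 76.7, 88.4 and 83.8 in GB. Every GB library was above every other library, and only GA3 fell within the CON range, with GA1 and GA2 below it. The GB mean of 83.0 ± 5.90 FPKM was 4.82 times the CON mean and 5.38 times the GA mean. The log2FC was 2.24 against CON and 2.40 against GA (SE 0.10, adjusted p = 2.7e-07 and 1.5e-07, limma).

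IRF2, the counterpart of IRF1 at shared elements, was at 5.06, 7.41 and 5.36 FPKM in CON, 6.82, 7.89 and 7.21 in GA, and 19.5, 15.2 and 18.3 in GB. It also rose, and 2 of the 3 CON libraries were below all GA libraries. The log2FC was 1.51 against CON and 1.21 against GA (SE 0.14, adjusted p = 5.6e-05 and 0.00028, limma). Against GA, its 95% confidence interval of 0.89 to 1.54 lay wholly below that of IRF1, 2.16 to 2.63.

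The IRF1 to IRF2 ratio of FPKM within a library was 3.28, 2.50 and 3.09 in CON, 2.31, 1.66 and 2.42 in GA, and 3.93, 5.83 and 4.57 in GB. GB was thus highest, with a mean of 4.78 ± 0.96 (SD, n = 3) against 2.95 ± 0.41 in CON, and GA lowest, with 2.13 ± 0.41. The groups did not overlap, although the gap between CON2 and GA3 was small beside either SD, and an exact permutation test of 3 libraries against 3 cannot give a p under 0.1. The ratio does not depend on how libraries are scaled.

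IRF3, the latent factor of nucleic acid sensing and often taken as constitutive, was at 60.3, 62.9 and 65.5 FPKM in CON, 62.3, 64.6 and 70.2 in GA, and 161, 157 and 159.9 in GB. Its GB libraries were close together and all above the rest. The mean rose to 159 ± 2.25 FPKM, 2.54 times CON and 2.43 times GA. The log2FC was 1.34 in GB vs. CON (95% confidence interval 1.21 to 1.46) and 1.27 in GB vs. GA (1.15 to 1.40), with adjusted p = 9.6e-08 and 1.4e-07 (limma). Although IRF3 changed by less than IRF7, its standard error of 0.054 was the smallest of the 6 tested members.

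IRF8, a factor of myeloid and B cells, was at 0.41, 0.080 and 0.080 FPKM in CON, 0, 0.30 and 0.41 in GA, and 2.06, 1.35 and 1.53 in GB. All GB libraries were above the others, yet each value was small. The lowest value above 0 listed for this gene was 0.080 FPKM, in 2 libraries. The GB values were 16.9 to 25.8 times that step and the CON and GA values at most 5.12 times, and no linear fold is given against values this close to 0. The log2FC was 1.66 against CON and 1.57 against GA (SE 0.30, adjusted p = 0.0029 and 0.0044, limma). With pseudocounts of 1 and 0.1 it was 1.16 and 2.76 in GB vs. CON, and 1.10 and 2.66 in GB vs. GA.

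IRF5 was at 2.77, 2.66 and 2.67 FPKM in CON, 3.10, 2.74 and 3.44 in GA, and 3.13, 3.08 and 3.89 in GB. GB and GA overlapped. The 3 GB libraries were above the 3 CON libraries, but the log2FC of 0.27 did not pass the test (95% confidence interval −0.015 to 0.55, adjusted p = 0.132, limma). In GB vs. GA it was 0.10 (−0.18 to 0.39, adjusted p = 0.573, same test). A rise of IRF5 by a log2FC of 1 is outside both intervals. IRF4, the factor of plasma cells and activated lymphocytes, was listed at 0 in every library but CON3, where it was at 0.080 FPKM, and was not tested.

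**Figure D2:**
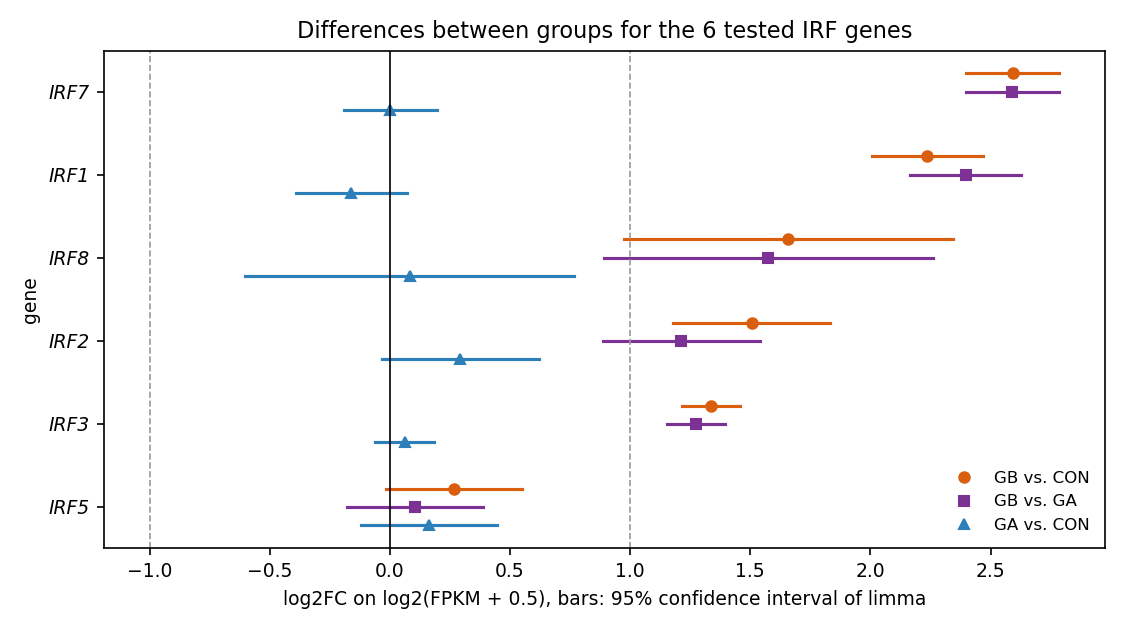
log2FC with its 95% confidence interval from limma for the 6 tested IRF genes in GB vs. CON (circles), GB vs. GA (squares) and GA vs. CON (triangles), with dashed lines at the fold thresholds. Both GB comparisons are above 1 for IRF7, IRF1, IRF8, IRF2 and IRF3, from 2.59 for IRF7 to 1.21 for IRF2 in GB vs. GA, and every GA vs. CON interval includes 0.

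In GA vs. CON, where IFNT was absent, 0 of the 6 tested members were called and 0 had an unadjusted p under 0.05 (limma). Of all tested genes, 0.0716% were called and 19.3% had an unadjusted p under 0.05, so 0 of 6 is close to these shares. IRF2 differed most, with a log2FC of 0.29 (95% confidence interval −0.033 to 0.62, adjusted p = 0.298, limma). IRF5 was at 0.16 (−0.12 to 0.44, adjusted p = 0.499, same test) and IRF1 at −0.16 (−0.39 to 0.072, adjusted p = 0.415, same test). IRF7 was at 0.0015 (−0.19 to 0.20) and IRF3 at 0.062 (−0.060 to 0.18). For IRF8 the interval of −0.60 to 0.77 was the widest. A change of 1 on this log2 scale lies outside the intervals of all 6 tested members. For IRF8 this says little, since its CON and GA values were at most 0.41 FPKM, where the pseudocount shrinks differences. The median log2FC of all tested genes was 0.061 in this comparison, while it was −0.016 for GB vs. CON and −0.075 for GB vs. GA.

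The order of the members by FPKM changed at the top. In CON the order was IRF3, IRF7, IRF1, IRF2, IRF5, IRF8 and IRF4, and the libraries of IRF3 and IRF7 overlapped, as did those of IRF8 and IRF4. The same order held in GA, where IRF3 and IRF7 were barely separate. The lowest GA library of IRF3 was at 62.3 FPKM and the highest of IRF7 at 61.4, beside SDs of 4.09 and 4.02. In GB, IRF7 stood first and IRF3 second, with all neighbours separate. The IRF7 to IRF3 ratio within a library was 0.92 ± 0.12 (SD, n = 3) in CON, 0.88 ± 0.055 in GA, and 2.22, 2.22 and 2.15 in the GB libraries. Summed over the 7 members, the family reached 147 ± 4.97 FPKM in CON, 149.6 ± 9.44 in GA and 615 ± 5.53 in GB. IRF7 made up 39.4% ± 3.68 of this sum in CON and 56.9% ± 0.75 in GB. The share of IRF3 went from 42.8% ± 1.89 to 25.9% ± 0.29 although its own level rose, and that of IRF1 was 11.7% ± 1.16 and 13.5% ± 1.06.

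**Figure D3:**
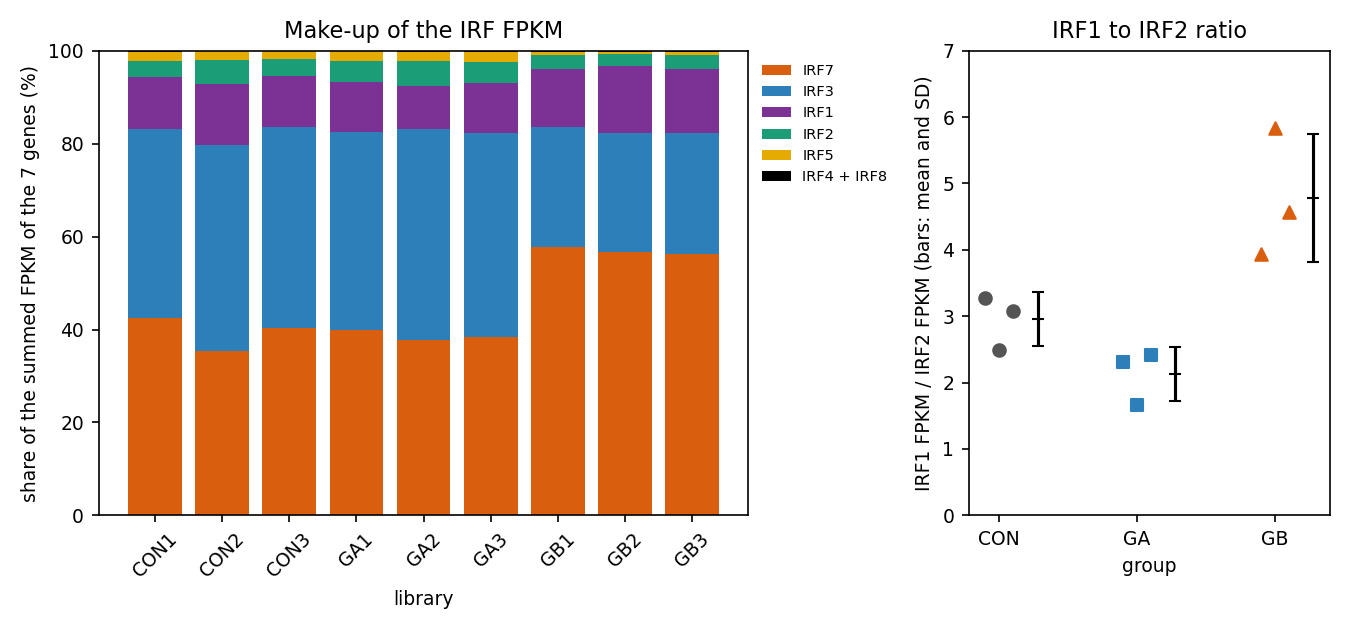
Left, the share of each gene in the summed FPKM of the 7 IRF genes, in percent, as 1 stacked bar per library; right, the IRF1 to IRF2 ratio of FPKM in each library with the group mean and SD. IRF7 takes 35.3% to 42.4% of the sum in the 6 libraries without IFNT and 56.2% to 57.7% in GB, and the ratio is highest in GB (3.93 to 5.83).

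IRF9, described by its place in ISGF3, also rose, from a CON mean of 24.2 ± 2.06 FPKM (SD, n = 3) and 23.6 ± 1.10 in GA to 109 ± 3.55 in GB, with a log2FC of 2.15 and 2.19 (SE 0.067, adjusted p = 1.3e-08 and 1.2e-08, limma). STAT2 was called higher too, with a log2FC of 1.85 against CON and 1.87 against GA. IFNAR1, a chain of the type I interferon receptor, was called lower, at 32.3 ± 2.48 FPKM in CON, 36.6 ± 1.31 in GA and 14.2 ± 1.57 in GB (log2FC −1.16 and −1.34). The other chain, IFNAR2, was not called, with a log2FC of 0.26 against CON and 0.10 against GA. Of 7 tested genes from the receptor to ISGF3, 3 were called higher and 1 lower in each comparison with GB. Of all tested genes, 2.94% were called higher and 1.07% lower against CON, and 2.66% and 0.978% against GA.

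Of 16 tested adaptors and kinases that activate IRF3, IRF5 and IRF7, 0 were called by limma in either comparison with GB. Of all tested genes, 2.94% were called higher and 1.07% lower against CON, and 2.66% and 0.978% against GA, so 0 of 16 is close to these shares. An unadjusted p under 0.05 was found for 8 against CON and 7 against GA (limma), against 43.8% and 40.0% of all tested genes. TBK1 was at 13.8 ± 0.54 FPKM in CON, 16.2 ± 0.39 in GA and 20.2 ± 1.63 in GB, a log2FC of 0.53 against CON and 0.31 against GA (adjusted p = 0.00046 and 0.0097, limma), under the fold threshold. IKBKE was at 2.82 ± 0.52, 2.73 ± 0.59 and 2.96 ± 0.54 FPKM. AZI2, an adaptor of TBK1 named after its values were seen, came closest to a call, with a log2FC of 0.99 against CON and 0.83 against GA, both short of the threshold. The first was called, at 1.00 to 1.05, with median-of-ratios factors and without CON1, CON3 or GB2.

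Among 11 genes that restrain IRF proteins or the interferon signal, 4 were called higher and 0 lower in each comparison with GB. Of all tested genes, 2.94% were called higher and 1.07% lower against CON, and 2.66% and 0.978% against GA. TRIM21, a ubiquitin ligase that acts on several IRF proteins, rose from 2.64 ± 0.38 FPKM in CON to 81.5 ± 3.37 in GB, and RBCK1, which acts on IRF3, from 35.4 ± 5.09 to 124 ± 4.76. The other two were the feedback inhibitors USP18 and SOCS1, with log2FC of 6.88 and 2.56 in GB vs. GA. The genes of the IRF2-binding corepressors were abundant and close to level in GB vs. GA, with a log2FC of −0.23 for IRF2BP1 (adjusted p = 0.0242, limma), 0.053 for IRF2BP2 (adjusted p = 0.621, same test) and −0.11 for IRF2BPL (adjusted p = 0.252, same test). None of the 7 genes of the list that were not called passed the fold threshold in either comparison. The median log2FC of the list was 0.13 against CON and 0.053 against GA.

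**Figure D4:**
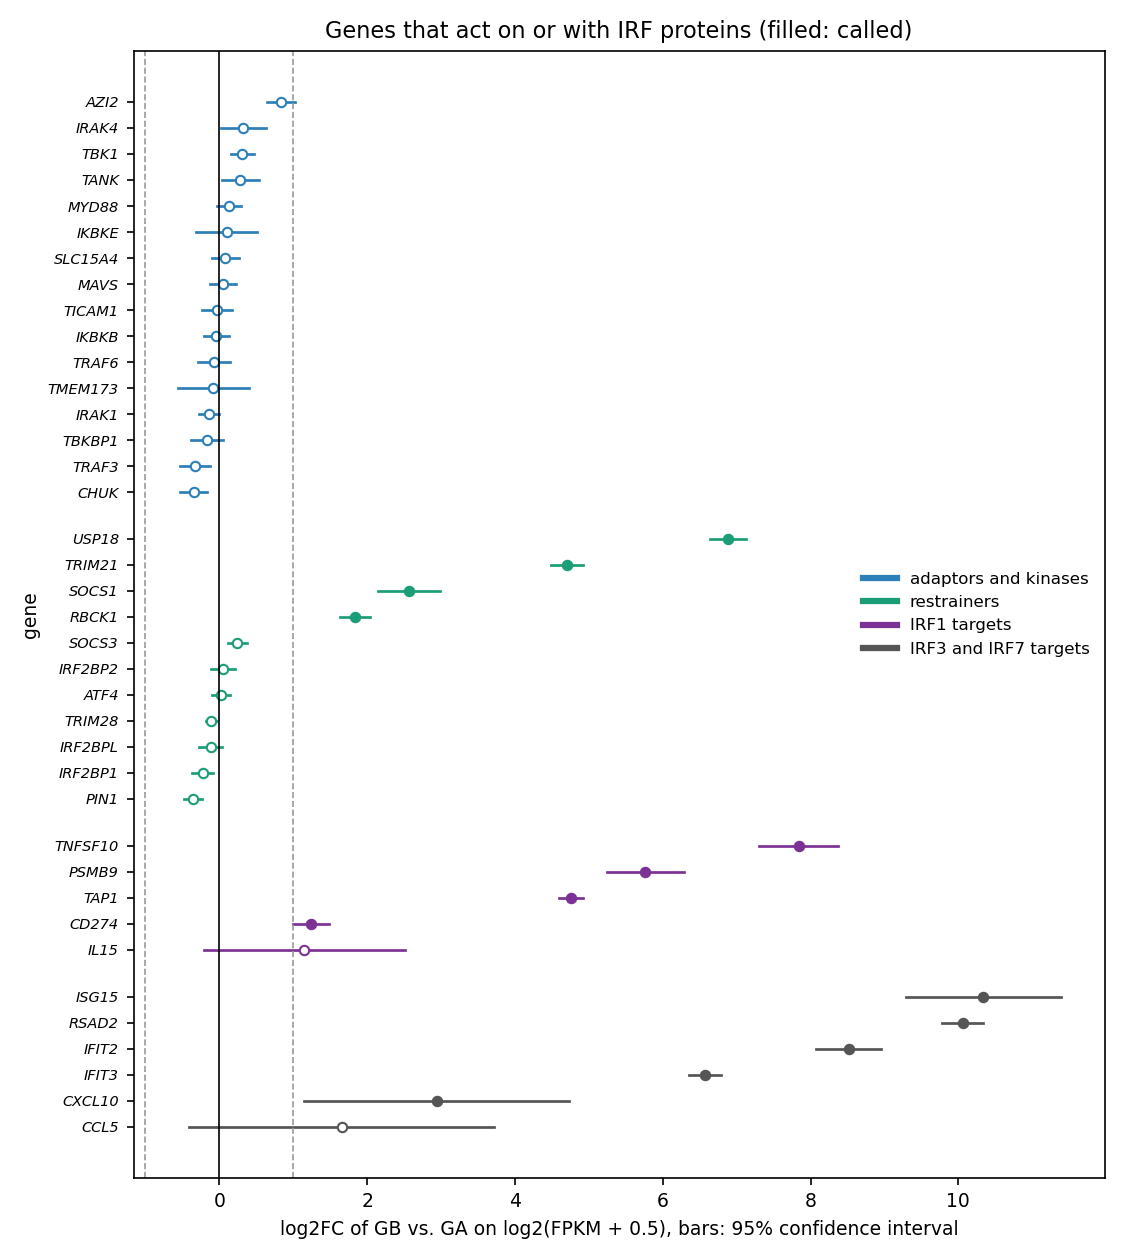
log2FC of GB vs. GA with its 95% confidence interval for the tested genes of 4 lists (adaptors and kinases, restrainers, IRF1 targets, IRF3 and IRF7 targets), with filled circles for called genes and dashed lines at the fold thresholds. The 16 adaptors and kinases lie between −0.34 and 0.83, none of them called, and 4 of the 11 restrainers are called higher. Of all tested genes, 2.66% were called higher and 0.978% lower. TNFSF10, IL15, RSAD2 and IFIT2 passed the filter only through GB.

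Of 5 tested genes known as targets of IRF1, 4 were called higher in each comparison with GB, beside the 2.94% and 2.66% of all tested genes. TNFSF10 and IL15 were tested only through their GB values, as IRF8 was, while VCAM1 and CIITA stayed under the filter, so the count is no support for the list. PSMB9, TAP1 and CD274 reached 0.5 FPKM in every group, and all were called. PSMB9, an immunoproteasome subunit, was at 1.36 ± 0.67 FPKM in CON and 135 ± 1.71 in GB, and TAP1, a peptide transporter, at 7.01 ± 0.70 and 191 ± 4.26. CD274, the checkpoint ligand PD-L1, changed by a log2FC of 1.28 in GB vs. CON. TNFSF10, the death ligand TRAIL, was listed at 0 in 2 of the 3 CON libraries, and its log2FC of 7.94 in that comparison was 7.03 and 9.88 with pseudocounts of 1 and 0.1.

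Of 6 tested targets of IRF3 and IRF7, 4 were called higher against CON and 5 against GA, beside 2.94% and 2.66% of all tested genes. RSAD2 and IFIT2 were likewise tested only through their GB values and had to differ. Of the 4 that reached 0.5 FPKM in every group, ISG15 and IFIT3 were called in both comparisons and CCL5 in neither. CXCL10, a chemokine, was called against GA alone, and whether its 2 differences differ was not tested. It was at 2.51, 1.29 and 4.96 FPKM in CON, 0, 0 and 4.13 in GA, and 7.04, 5.65 and 10.8 in GB. Its log2FC of 2.94 against GA (adjusted p = 0.0217, limma) ran from 2.41 to 4.01 with single libraries left out and from 2.32 to 4.46 over all alternatives, and the call was lost without GA1, GA2, GB1 or GB3 (adjusted p 0.054 to 0.076).

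The partners that IRF4 and IRF8 need for binding composite elements were low. SPI1 was at 0 to 1.33 FPKM over the 9 libraries and was not called, while SPIB, BATF, BATF3 and IKZF1 were each at 0 in 5 or more libraries and none exceeded 0.91 FPKM. Immune cell markers were uneven. Over the 9 libraries CD14 had a mean of 20.2 FPKM, LAPTM5 14.6, FCER1G 5.93 and CD68 3.83, and the others in the table were each below 1 FPKM. Of the 17 on that list 15 were in the table, 7 were tested, 0 were called in any comparison (1, 0 and 1 with an unadjusted p under 0.05 in GB vs. CON, GB vs. GA and GA vs. CON, limma), and their summed level was 46.1 to 54.5 FPKM in the CON libraries, 48.2 to 56.6 in those of GA and, with IFNT, 39.1 to 52.4, most of it CD14 and LAPTM5. ITGAM did not exceed 0.050 FPKM, and CD3D was at 0 in all libraries but 1. Their part in the IRF8 result was not tested.

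Of the genes next to IRF3, 1 also rose. BCL2L12, a BCL2 family gene that lies beside IRF3 in the RefSeq gene order of ARS-UCD2.0, was at 47.1 ± 2.48 FPKM in CON, 45.7 ± 2.74 in GA and 135 ± 13.5 in GB, a log2FC of 1.51 against CON and 1.55 against GA (SE 0.080, adjusted p = 8.1e-07 and 6.4e-07, limma). The neighbour on the other side, SCAF1, did not pass the test (log2FC −0.066 and −0.13). Reads shared between IRF3 and BCL2L12 were not tested. RAD50, whose annotated span overlaps that of IRF1, was at a mean of 23.8 FPKM in CON and 29.0 in both GA and GB, with a log2FC near 0 in GB vs. GA, where IRF1 rose. Whether strand was used in the counting is not given in the sources used here. LOC112444593, which overlaps IRF2, stayed under 0.5 FPKM on average in each group. PHRF1 beside IRF7, TNPO3 beside IRF5 and COX4I1 beside IRF8 were not called, with log2FC of −0.21, −0.17 and −0.096 in GB vs. GA.

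Likeness of pattern was measured as the root mean square difference of centred log2(FPKM + 0.5) over the 9 libraries, which counts both the shape and the size of a change. Nearest to IRF1 was ERAP1 (0.093), the aminopeptidase that trims peptides for MHC class I, followed by PLSCR2 (0.13) and JSP.1 (0.13), an MHC class I gene. Nearest to IRF7 were PNPT1 (0.085), PLEKHA4 (0.088) and PLSCR2 (0.11). IRF3 had the closest matches of all, SHISA5 (0.058), MASTL (0.061) and RICTOR (0.064). For IRF2 they were CTC1 (0.13), TCAF2 (0.14) and ELMO2 (0.16), and for IRF8 RAB8B (0.21), NECTIN2 (0.25) and GRAMD1C (0.26). Within the family, IRF1 and IRF7 were 0.21 apart, IRF2 and IRF3 0.19, and IRF3 and IRF7 0.62. Other genes lay nearer in each case. Among all tested genes, IRF7 ranked 25th from IRF1, and IRF1 24th from IRF7. IRF3 ranked 10th from IRF2, and IRF2 71st from IRF3. IRF7 ranked 4412th from IRF3, and IRF3 174th from IRF7.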

How the data were processed

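The authors trimmed reads with fastp 0.21.0, filtered out rRNA (Bowtie2 2.33), mapped what was left to ARS-UCD1.2 (HISAT2 2.2.1) and quantified genes (RSEM 1.3.3). The deposited table gives FPKM computed by the authors for each library, to 2 decimals, with replicates kept apart. The annotation release is not given in the sources used here. For their own tests they used DESeq2 1.34.0 on read counts, a test that FPKM do not allow.

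Groups came from the sample labels, and 0 pairs of libraries held identical values. log2(FPKM + 0.5) of the 12578 genes with a mean of at least 0.5 FPKM was fitted with limma 3.58.1 in R 4.3.3, with 1 mean per group and a variance trend. The procedure was checked on simulated data with known changes. Python 3.11.15 and matplotlib 3.10.9 were used for the plots. Symbols of 16015 genes, all 7 members included, matched the RefSeq gene table of ARS-UCD2.0, another build, used for names and neighbours only. No sequence was used.

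Named genes are all members, listed pathway genes that were called or are direct partners, kinases, corepressors or other IRF genes, neighbours, and the 3 genes nearest in pattern to each called member. IFNAR2 is named beside IFNAR1 as the other receptor chain. The members and lists were chosen with earlier results of these data known. GBP2, CASP1, BST2, IFIT1, IFNB1, IKZF3, MS4A1 and CD2 of the lists were not matched and not analysed here, some other listed genes are not reported here, and STING1 was taken under its older symbol TMEM173. Alternatives were other pseudocounts, filters, scalings and variance models, fits of 2 groups, a replicate block and the omission of single libraries.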

Additional observations from a re-analysis of the deposited data

How the results depend on the processing

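The calls of IRF1, IRF2, IRF3, IRF7 and IRF8 in both comparisons with GB, and the absence of a call for IRF5 and for GA vs. CON, were kept under all 19 alternatives, except that IRF8 could not be tested with a filter at a mean FPKM of 1, which its mean does not reach, so that 4 members were then called. Directions turned only for uncalled values. Of the other genes run under the alternatives, only CXCL10 in GB vs. GA and AZI2 in GB vs. CON changed their call. Most uncalled genes of the lists, CCL5, IL15 and CDH5 among them, and CXCL10 in GB vs. CON were not run under the alternatives. IRF7 in GA vs. CON was −0.032 with TPM rescaling, −0.059 with median-of-ratios factors and −0.062 with quantile normalization, and −0.10 to 0.062 with single libraries left out. IRF8 in GA vs. CON was −0.092 to 0.34 with single libraries left out. The same omissions gave −0.061 to 0.17 for IKBKE in GB vs. CON and −0.019 to 0.24 in GB vs. GA, −0.075 to 0.028 and −0.0078 to 0.098 for IRF2BP2, −0.52 to 0.063 for SPI1 in GB vs. GA and −0.054 to 0.068 for RAD50 in GB vs. GA, which was 0.024 with TPM rescaling and 0.070 with median-of-ratios factors. The mean of IRF3 in GB was 162.4 FPKM with median-of-ratios factors. With the replicate block, members called stayed at 5, 5 and 0 in GB vs. CON, GB vs. GA and GA vs. CON. The block changed no call of the other genes run under the alternatives. Whether the replicate numbers pair the samples is not given in the sources used here. Deviations of same-numbered libraries correlated by −0.031 to 0.077 over 9 pairs and those of other libraries by −0.068 to 0.057. Such values cannot show whether same-numbered dishes shared an origin. Low FPKM limits IRF8 and IRF4 most.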
